A study of Mus musculus with 9 samples.

Results

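Gene deserts are long stretches of genome that hold no protein-coding gene. The 7406 peaks of open chromatin described here lay in such stretches of the mouse genome (build mm10): the centre of each was outside every protein-coding gene body and more than 200 kb from both ends of every protein-coding gene in the gene table used, which holds 21631 such genes. They made up 5.05% of the 146734 peaks measured, and the rule that chose them used position only and no signal. They fell in 642 deserts, each the interval between a pair of neighbouring protein-coding genes, with a median of 7 and a maximum of 109 peaks per desert and a median interval of 839 kb. The median peak was 336 kb from the nearest protein-coding gene and the farthest was 2200.0 kb away. A desert or peak is called here by the genes on its left and right (Myc/Gsdmc), which gives a position and not a measured target.

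The measurements are bulk ATAC-seq, in which a transposase cuts and tags accessible DNA, on D2A1-d, a line of mouse breast carcinoma cells grown in culture. The control cells (NTC, labelled WT) were transduced with the NTC construct, and the Med4 knockdown cells with shRNA #1 or shRNA #4 against Med4, called hairpins here; all groups are labelled untreated. Each of the 3 groups had 3 libraries, labelled as biological replicates. Pool or clone origin of the cells, and separate transductions of the libraries of a group, were not given in the sources used here, so the p-values below measure the spread between these libraries, which may be technical. The comparison asks how chromatin accessibility differs when Med4 is targeted, in a series whose title ties MED4 to metastatic dormancy.

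MED4 belongs to the middle module of Mediator, a large assembly through which transcription factors bound at enhancers reach RNA polymerase II at promoters. Many gene deserts flank regulators of development or genes of the nervous system and hold enhancers that act on them over long distances, often in a single tissue. Such enhancers are often accessible only in the tissues that use them, and ATAC-seq measures that access, not transcription.

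The libraries held 44.8 to 98.9 M reads in peaks, the fewest in replicate 3 of hairpin #4. The values are reads per peak of 501 bases, normalised by the authors, and libraries of a group differed from one another far less than libraries of different groups (chi-square per degree of freedom 2.00 to 2.92 against 9.96 to 29.1). The peak at an end of Med4 was lower with the hairpins (log2 fold -0.24, limma adjusted p = 0.0017), but a hairpin acts on RNA and this peak does not check the knockdown. Of markers of other cell types, 1 of 5 leukocyte, 1 of 3 endothelial and 0 of 2 adipocyte genes had a peak within 1 kb of a gene end. The leukocyte value was 478 to 482 in NTC, 504 to 534 with #1 and 471 to 497 with #4, and the endothelial value 231 to 250.3, 413 to 472 and 268 to 303. Of 6 mammary epithelial markers 2 had one, Krt18 and Krt14; their summed value was 492 to 530 in NTC, 973 to 1034 with #1 and 981 to 1044 with #4. The 3 of 4 mesenchymal markers with one summed to 6353 to 7053, 5543 to 5656 and 5400.4 to 5947. Of these only Vim was called lower (log2 fold -0.43), while Zeb1 (0.001) and Fn1 (-0.03) were not called. The part of these shifts in the results on deserts was not tested.

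A few deserts hold microRNA genes, which act by pairing of their seed (bases 2 to 8 of the mature strand) with messenger RNAs. The mature sequences below belong to microRNA genes within 5 kb of a desert peak whose values are given further on, with the seed in capitals; they come from RefSeq (GRCm38.p6).
mmu-miR-100-5p: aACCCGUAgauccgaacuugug
mmu-miR-99a-5p: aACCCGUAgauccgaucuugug
mmu-miR-125b-5p: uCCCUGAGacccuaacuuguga
mmu-let-7c-5p: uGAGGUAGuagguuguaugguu
mmu-miR-221-3p: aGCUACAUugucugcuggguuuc
mmu-miR-222-3p: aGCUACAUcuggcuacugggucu
mmu-miR-344d-3p: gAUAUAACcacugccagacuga

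miR-100-5p and miR-99a-5p share their seed although their genes lie in different deserts on chromosomes 9 and 16, and miR-221-3p and miR-222-3p share theirs and lie side by side on chromosome X. Long non-coding RNA (lncRNA) genes do not count as genes in the rule, so some desert peaks are lncRNA promoters. The 4 promoters below lie whole inside a desert peak, 2 that rose and 2 that fell, and are shown from 250 bases before to 50 after the start of the transcript, read along its strand (RefSeq, GRCm38.p6). Capitals mark matches to the AP-1 motif TGANTCA and the TEAD motif GGAATG on either strand; the 2 motifs can share letters, but no match overlapped another in these windows.
Gm31415, chr3:49062087-49062386, plus strand: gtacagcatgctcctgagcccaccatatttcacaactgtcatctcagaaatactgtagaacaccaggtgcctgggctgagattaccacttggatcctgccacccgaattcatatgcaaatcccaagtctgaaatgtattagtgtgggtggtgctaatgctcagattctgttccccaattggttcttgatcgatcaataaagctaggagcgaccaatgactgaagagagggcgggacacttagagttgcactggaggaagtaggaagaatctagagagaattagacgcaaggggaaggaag
Gm36536, chr1:176527220-176527519, minus strand: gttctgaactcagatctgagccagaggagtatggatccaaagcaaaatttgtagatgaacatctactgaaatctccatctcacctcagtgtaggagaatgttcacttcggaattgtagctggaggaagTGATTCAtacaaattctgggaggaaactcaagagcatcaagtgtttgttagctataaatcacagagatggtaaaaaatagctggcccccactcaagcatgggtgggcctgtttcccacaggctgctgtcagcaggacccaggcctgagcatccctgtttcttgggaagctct
Gm12022, chr11:18493217-18493516, minus strand: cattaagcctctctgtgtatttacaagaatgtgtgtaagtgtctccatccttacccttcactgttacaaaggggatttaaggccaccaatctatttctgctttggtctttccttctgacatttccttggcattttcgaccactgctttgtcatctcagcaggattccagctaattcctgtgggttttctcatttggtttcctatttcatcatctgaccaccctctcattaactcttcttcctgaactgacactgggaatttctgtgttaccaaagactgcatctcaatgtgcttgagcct
Gm30246, chr14:76780461-76780760, plus strand: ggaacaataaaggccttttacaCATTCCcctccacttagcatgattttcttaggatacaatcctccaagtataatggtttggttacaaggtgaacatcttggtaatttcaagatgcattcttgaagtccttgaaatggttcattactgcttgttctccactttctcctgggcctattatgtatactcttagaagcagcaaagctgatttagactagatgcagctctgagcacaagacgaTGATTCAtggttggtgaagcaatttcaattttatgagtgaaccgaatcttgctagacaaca

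The Gm36536 promoter held 1 AP-1 match and the Gm30246 promoter 1 AP-1 and 1 TEAD match, while these letters were in neither the Gm31415 nor the Gm12022 window. Of 32851 mouse promoters of the same length, 7.81% held the AP-1 and 14.7% the TEAD motif. A match is a description of the letters and not a measured site.

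Desert peaks were more often higher than lower in the knockdown cells. Of the 7404 desert peaks tested, 3167 (42.8%) were called higher and 1371 (18.5%) lower with the mean of both hairpins against NTC, where 27.9% of all 146729 tested peaks were called higher and 26.2% lower (54.1% in either direction). A call is a limma adjusted p under 0.05, adjusted over all tested peaks; the other 2 desert peaks had a mean under 10 and were not tested. Rises of at least 2-fold were called at 1039 desert peaks (14%; 5.97% of all peaks) and falls of that size at 86 (1.16%; 0.96% of all peaks). The median log2 fold of the desert peaks was 0.17 (quartiles -0.16 and 0.65), against -0.02 for all other peaks, 0.01 for intergenic peaks nearer to a gene, -0.01 for other peaks inside genes and -0.12 for the peaks within 1 kb of a gene end. In bulk samples, a larger share of cells with an open site and a more accessible site in each cell cannot be told apart.

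The libraries showed this without overlap between the control and the knockdown cells. Desert peaks took 3.14, 3.14 and 3.12% of the reads in peaks in the NTC libraries, 3.39, 3.40 and 3.30% with hairpin #1 and 3.50, 3.38 and 3.34% with hairpin #4. The median normalised value of a desert peak was 114, 113 and 112 in NTC, 132, 132 and 129 with #1 and 145, 138 and 136 with #4. Every NTC library was below every knockdown library on both measures. With each peak centred on its mean over the libraries, the median of the desert peaks was -0.11, -0.12 and -0.11 in NTC, 0.07, 0.07 and 0.02 with #1 and 0.12, 0.07 and 0.06 with #4, on the log2 scale. The peaks at gene ends lay the other way, at 0.07, 0.06 and 0.10 in NTC, -0.06, -0.04 and 0.02 with #1 and -0.10, -0.01 and 0.01 with #4. Less the median of all other peaks, the desert median was -0.12, -0.13 and -0.13 in NTC, 0.06, 0.06 and 0.02 with #1 and 0.11, 0.06 and 0.06 with #4, a difference within each library that a shift of the whole library leaves as it is. These medians are descriptions over peaks and carry no test.

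**Figure D1:**
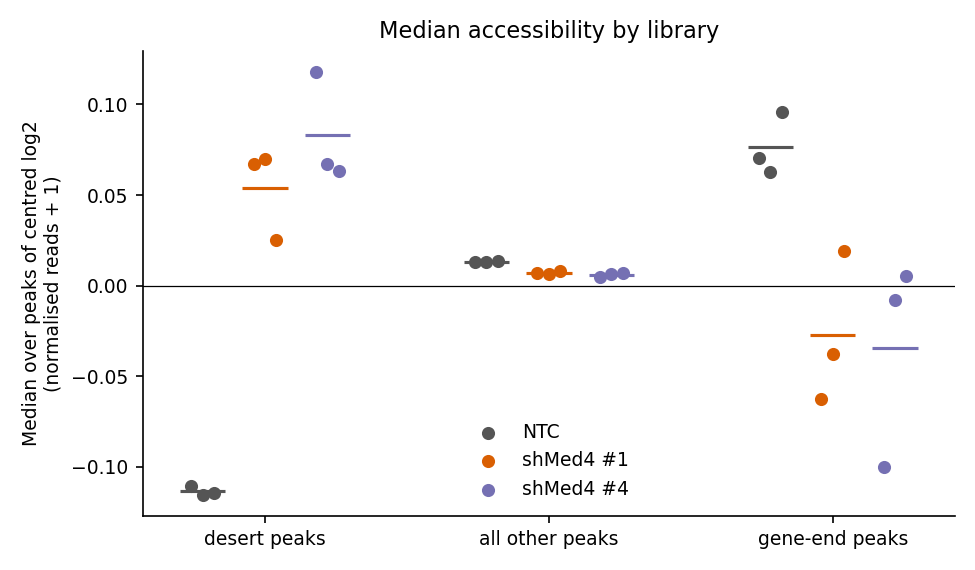
Median over peaks of the centred log2 value (normalised reads + 1) in each library, for desert peaks, all other peaks and peaks within 1 kb of a gene end; points are libraries and short lines group means. The NTC libraries lie at -0.11 to -0.12 for desert peaks, below all knockdown libraries (0.02 to 0.12), while at gene ends they lie above them.

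How the calls split depended on the scale. Of the desert peaks called in either direction, 69.8% were called higher on the authors' scale. With each library centred on the median of the peaks away from gene ends the share was 59.1%, with 2721 desert peaks called higher and 1883 lower and a median log2 fold of 0.07. With libraries centred on the peaks at gene ends, 3528 were called higher and 1014 lower. The difference between the median log2 folds of deserts and other peaks does not change with such a shift of a whole library. The shares called, given below for deserts and other peaks on the authors' scale, do change with it.

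The share of peaks called higher was larger in each bin of distance from genes up to 1000 kb. Among intergenic peaks within 10 kb of a protein-coding gene 20.8% were called higher and 29.2% lower, and at 100 to 200 kb 35.2% and 21.9%. In the deserts the share called higher was 38.8% at 200 to 300 kb (2967 peaks), 43.7% at 300 to 500 kb (2599 peaks), 48.3% at 500 to 1000 kb (1503 peaks) and 45.4% beyond 1000 kb (335 peaks). The share called lower was 20.6%, 18.2%, 14.5% and 20.9% in the same bins. Rises of at least 2-fold were called at 3.40% of the peaks within 10 kb, at 19.1% of those 500 to 1000 kb away and at 17.3% beyond. The limit of 200 kb thus cuts a graded change and not a step. The last bin, which holds the fewest peaks, did not extend the grade for the shares called, while its median log2 fold of 0.26 was next to the 0.24 of the bin before it. The hairpins differed there. From the bin before to the last, the share called higher went from 43.4% to 36.1% with #1 and from 48.0% to 48.1% with #4. The medians went from 0.23 to 0.15 with #1 and were 0.28 in both bins with #4.

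**Figure D2:**
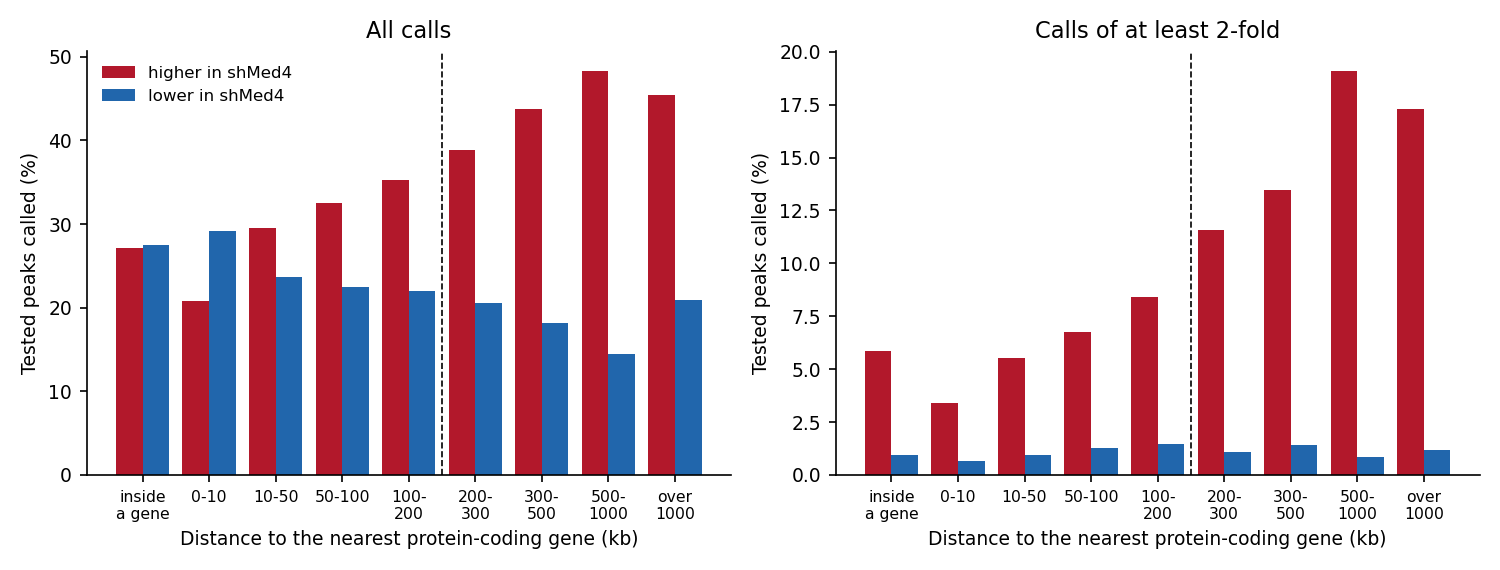
Share of tested peaks called higher (red) or lower (blue) in the knockdown cells by distance to the nearest protein-coding gene in kb, for all calls (left) and for calls of at least 2-fold (right); peaks right of the dashed line are the desert peaks. The share called higher climbs from 20.8% within 10 kb to 48.3% at 500 to 1000 kb and is 45.4% beyond.

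Desert peaks were weaker than others: their NTC values had quartiles of 61.2 and 284, against 89.5 and 583 for the other peaks, and 35.9% of them fell in the lowest of 4 equal classes of all peaks by mean value. The share called higher was larger in deserts in each class. From the lowest class up, 42.4%, 42.0%, 46.0% and 40.6% of desert peaks were called higher, against 20.8%, 26.2%, 33.6% and 27.6% of the other peaks. The shares called lower were 10.6%, 17.4%, 25.4% and 29.7% in deserts and 18.8%, 23.5%, 28.3% and 35.4% elsewhere. The other peaks include those at gene ends. Of the intergenic peaks nearer to a gene, 23.33%, 26.63%, 33.96% and 33.42% were called higher in these classes. The shares of these peaks called lower were 14.02%, 21.75%, 27.60% and 32.00%. Deserts thus differed less from them than from all other peaks in each class, in both directions. Desert peaks with values of 586 and over were called at least 2-fold higher in only 3.52% of cases, against 19.6% of those under 91.6. Of the 1039 such rises, 522, 279, 198 and 40 lay in the 4 classes, from the lowest up. Of the desert peaks, 1157 (15.6%) lay in the body of a lncRNA gene. They were called higher in 42.0% and lower in 19.2% of cases, against 42.9% and 18.4% of the desert peaks outside such genes.

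The difference from other peaks was present on each chromosome, although chromosomes differed among themselves. The median log2 fold of desert peaks was above that of the other peaks of the same chromosome on 20 of 20 chromosomes, with the mean of both hairpins. On chromosome 19 the medians were 0.60 for 97 desert peaks and -0.03 for other peaks, and on chromosome 6 they were 0.63 and 0.11. On chromosome 2 both medians were below 0 (-0.09 for desert and -0.25 for other peaks), as on chromosome 12 (-0.02 and -0.21). The share of desert peaks called higher was 70.1% on chromosome 19 and 26.3% on chromosome 2, the ends of the range.

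**Figure D3:**
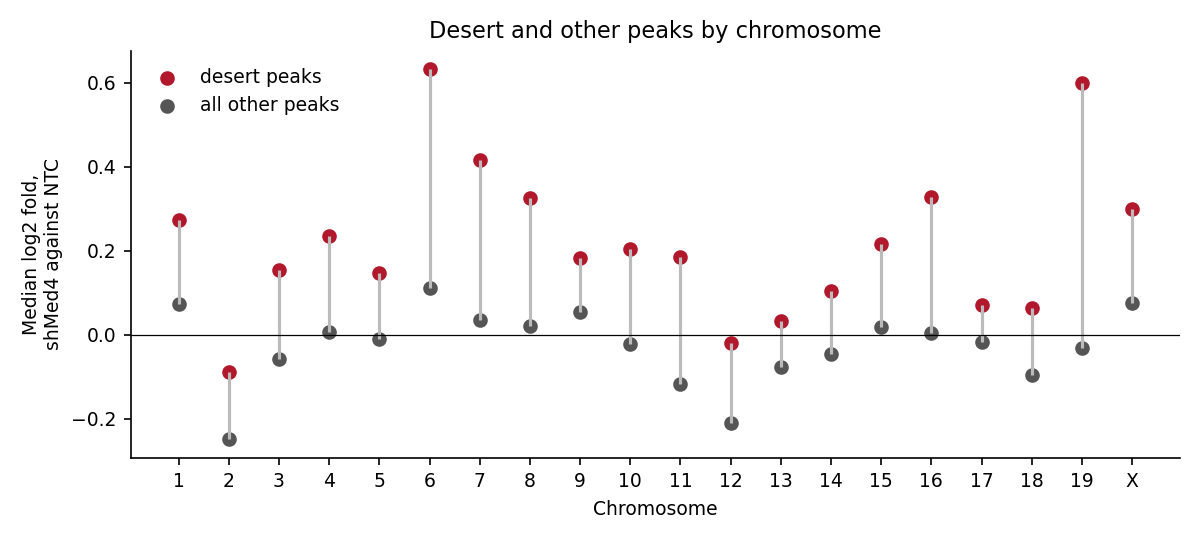
Median log2 fold of shMed4 against NTC by chromosome, for desert peaks (red) and all other peaks of the chromosome (grey), joined by a line. The red point is above the grey one on 20 of 20 chromosomes, although on chromosomes 2 and 12 both lie below 0.

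Each hairpin was also compared with NTC on its own; these comparisons share the NTC libraries, so their values are given side by side. With hairpin #1, 2944 desert peaks (39.8%) were called higher and 1413 (19.1%) lower, where 27.9% and 24.9% of all peaks were (52.7% in either direction). With hairpin #4, 3075 (41.5%) were called higher and 1344 (18.2%) lower, where 26.2% and 24.3% of all peaks were (50.4% in either direction). At least 2-fold, 1010 desert peaks were higher and 241 lower with #1 (13.6% and 3.25%; 6.53% and 2.58% of all peaks), and 1282 were higher and 93 lower with #4 (17.3% and 1.26%; 7.12% and 0.922% of all peaks). The median log2 fold of the desert peaks was 0.16 with #1 and 0.17 with #4.

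The test of the difference between the hairpins called many desert peaks. With #4 against #1, 2139 desert peaks (28.9%) were higher and 1788 (24.1%) lower, where 20.4% and 21.2% of all peaks were (41.6% in either direction). Differences of at least 2-fold were called at 667 desert peaks in favour of #4 (9.01%; 3.16% of all peaks) and at 227 in favour of #1 (3.07%; 1.19% of all peaks). The median difference was 0.02. The hairpins thus had nearly the same median over the deserts while individual peaks differed between them by several-fold.

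The 252 deserts with at least 10 tested peaks hold 5868 of the desert peaks. Of these deserts, 174 had a median log2 fold above 0 and 78 below it, and 185 were above the median of the non-desert peaks within 1 Mb of their flanking gene ends. Their medians ran from -0.47 to 2.43; 48 were above 0.5 and 19 above 1, while 0 were below -0.5. In 187 of the 252, peaks called higher and peaks called lower lay in the same desert. Of adjacent pairs in which both peaks were called, 84.7% went in the same direction at up to 5 kb (608 of 718), 82.3% at 5 to 20 kb, 79.3% at 20 to 50 kb and 85.1% when farther apart (561 of 659). These shares are descriptions: 69.8% of all desert calls were higher, so many pairs would go the same way without being neighbours, and the share was not lower at the longest distances.

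The highest medians were in the deserts on either side of Brinp3, a gene of the nervous system induced by BMP and retinoic acid signalling, and in 3 others next to neural or little-studied genes. In Rgs18/Brinp3 (11 peaks, median log2 fold 2.43) the median peak value was 37.1, 37.0 and 41.7 in the NTC libraries, 336, 350.4 and 319 with hairpin #1 and 212, 205 and 226 with hairpin #4. In Brinp3/Pla2g4a (12 peaks, 1.96) it was 45.2, 40.0 and 50.7 in the NTC libraries, 134, 136 and 126 with hairpin #1 and 141, 122 and 126 with hairpin #4. Neither desert overlapped between control and knockdown libraries, and 9 and 8 of their peaks were called higher and 0 lower. Dph6/BC052040 had a median of 2.04, with 12 of 12 peaks called higher, where the peaks around it had a median of -0.14. Gm40892/Flrt2, beside the gene of an adhesion protein that binds Unc5 receptors, had a median of 1.95 with 15 of 15 peaks called higher, at medians of 16.9, 16.4 and 25.4 in NTC, 70.4, 69.8 and 53.9 with #1 and 127, 136 and 111 with #4. In Lrrtm4/Gcfc2, beside a gene of a synaptic adhesion protein, 14 of 16 peaks were called higher and 0 lower (median 1.61, against 0.21 for the peaks around it).

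At the other end the shifts were smaller. Rtl1/Dio3, between an imprinted retrotransposon-derived gene and the gene of the deiodinase that inactivates thyroid hormone, had a median log2 fold of -0.47, with 14 of 19 peaks called lower and a median of -0.30 around it. Its median value was 293, 264 and 299 in the NTC libraries, 166, 183 and 187 with hairpin #1 and 306, 275 and 280.5 with hairpin #4, so the median level lay below NTC with #1 and overlapped it with #4, although the median of the single log2 folds was -0.40 with #4. In 1810013L24Rik/Grin2a, beside the gene of an NMDA receptor subunit, 16 of 18 peaks were called lower and 0 higher (median -0.46), with median values of 428, 376 and 385 in the NTC libraries, 287, 283 and 279 with hairpin #1 and 217, 217 and 223 with hairpin #4. All knockdown libraries were below all NTC libraries there, and hairpin #4 was lowest. Wac/Fzd8, beside the gene of a Wnt receptor, had 33 of 55 peaks called lower and 0 higher; its median log2 fold was -0.68 with #1 and -0.09 with #4, and 40 of its peaks were called higher with #4 than with #1. The median values there were 141, 152 and 134 in the NTC libraries, 83.2, 83.6 and 73.7 with hairpin #1 and 121, 136 and 111 with hairpin #4, so that #1 stood below both other groups. Mmadhc/Rnd3 (23 peaks) and Eci2/Cdyl (17 peaks) had medians of -0.40. Plpp3/Usp24, next to the gene of a lipid phosphatase, had 31 of 50 peaks called lower and 5 higher (median -0.38), where the peaks around it had a median of 0.05.

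The deserts with most peaks had smaller medians and calls in both directions. Myc/Gsdmc, which begins beside the gene of the growth-promoting transcription factor MYC and is the richest desert with 109 peaks, had 25 peaks called higher and 25 lower and a median log2 fold of 0.01. Its median values were 178, 160.2 and 167 in the NTC libraries, 209, 199 and 187 with hairpin #1 and 186, 171 and 164 with hairpin #4; #1 was above both other groups, which overlapped. The desert on the other side, A1bg/Myc, had 17 of 52 peaks called higher and 13 lower (median 0.09). Slc10a2/Efnb2 (93 peaks), beside the gene of an ephrin, was mostly higher, with 46 peaks called higher and 10 lower, and median values of 111, 104 and 101 in the NTC libraries, 148, 142 and 136 with hairpin #1 and 131, 148 and 139 with hairpin #4. Zeb2/Acvr2a (85 peaks), beside the gene of a repressor that drives epithelial-mesenchymal transition, was mostly lower, with 42 peaks called lower and 14 higher (median -0.16). Klf4/Actl7b (73 peaks) had 34 called higher and 10 lower, and Nmbr/Cited2 (68 peaks) 20 and 17. Over both hairpins, the log2 folds of single peaks against NTC ran from -2.33 to 2.28 within Myc/Gsdmc, whereas around Brinp3 9 peaks on each side were called higher with each hairpin and 0 lower.

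**Figure D4:**
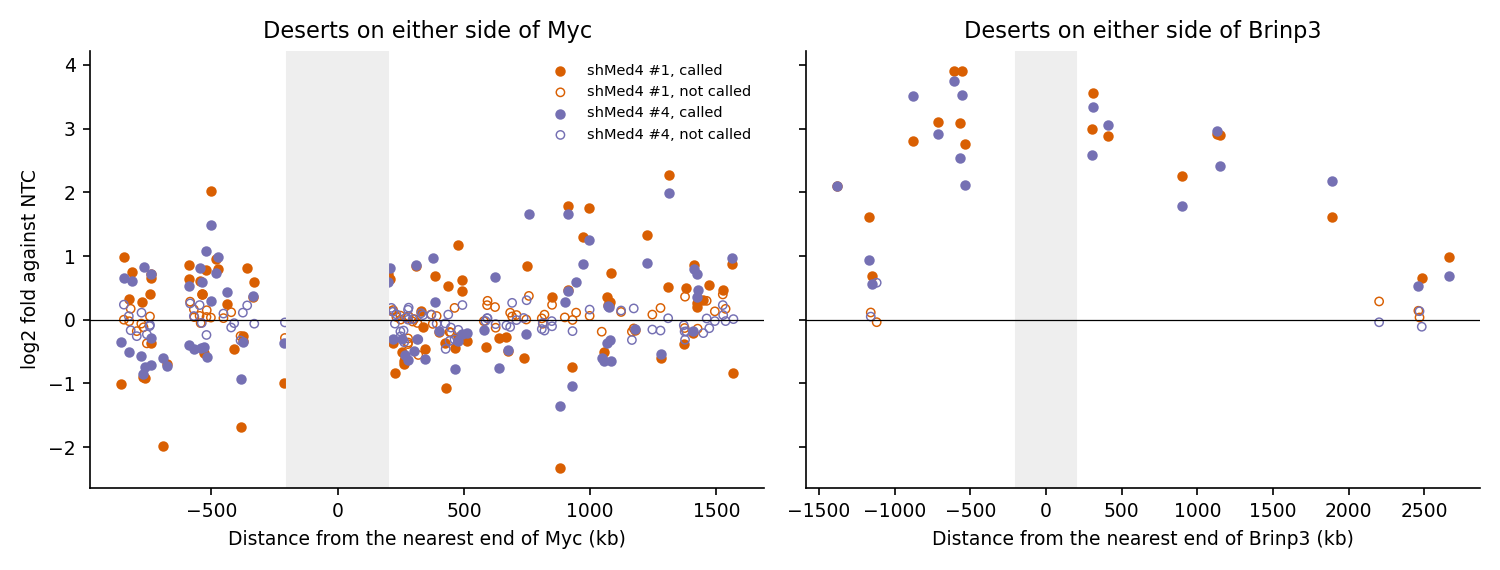
log2 fold against NTC of each desert peak beside Myc (left) and Brinp3 (right), by distance from the nearest end of that gene in kb, with the sign giving the side; filled points are called at a limma adjusted p under 0.05, open points are not, and the grey band is the stretch within 200 kb that holds no desert peak. Peaks beside Myc lie on both sides of 0, from -2.33 to 2.28 in Myc/Gsdmc, while the called peaks beside Brinp3 all lie above 0.

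Some stretches went one way without a break. Runs of at least 6 consecutive desert peaks that were all called higher numbered 94, with 754 peaks in 85 deserts, and runs called lower numbered 17, with 125 peaks in 15 deserts. Runs were not counted among other peaks. Because 42.8% of desert peaks were called higher and 18.5% lower, more and longer runs called higher would arise from these shares alone. The run counts are thus descriptions. The longest run called higher had 18 peaks over 1357 kb in Khdrbs3/Fam135b, with single log2 folds of at least 0.62. Runs of 16 were in Adamts5/N6amt1 and in Cxcl12/Zfp637, which begins beside the gene of the chemokine CXCL12. The 16 peaks of that desert were all called higher, with a median log2 fold of 1.33, while the peaks around it had a median of 0.08. A run of 14 lay in Csmd1/Mcph1. The longest run called lower had 15 peaks over 161 kb in 1810013L24Rik/Grin2a, and the next had 11 in Agtr1b/Tbl1xr1.

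Deserts were also grouped by the genes that flank them, in lists chosen with earlier results of these data known. Of 86 neural adhesion and synapse genes, 62 flanked 82 deserts with 922 tested peaks, of which 56.7% were called higher and 14% lower, and 28.9% were at least 2-fold higher. Their median log2 fold was 0.49. The 4915 desert peaks with no listed gene on either flank were called higher in 42.3% and lower in 18.4% of cases, with a median of 0.16. The neural deserts were weaker in NTC (median 76.2, against 115 for those with no listed flank), but within the 4 classes of mean value the shares called higher were 58.3%, 55.1%, 59.5% and 48.3%, against 39.3%, 40.3%, 44.4% and 39.9% of the remaining desert peaks. Of the 34 such deserts with at least 10 peaks, 27 had a median above 0 and 7 below. These counts are descriptions and carry no test. The neural and remaining desert peaks were not matched for distance from genes, with which the share called higher also changed.

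The neural peaks with the lowest p in 3 deserts were high with both hairpins. The Csmd1/Mcph1 peak (chr8:18338444-18338945), beside the gene of a complement regulator of the brain, was 149, 144 and 139.9 in the NTC libraries, 967, 978 and 978 with hairpin #1 and 1434, 1510.4 and 1536 with hairpin #4. It rose with a log2 change of 3.06 ± 0.06 (SE; limma adjusted p = 1.26e-31), and the values of the 3 groups did not overlap, with #4 above #1. Values of the Kcnv1/Csmd3 peak (chr15:46937068-46937569) were 227, 174 and 267 in the NTC libraries, 1405, 1425 and 1479.9 with hairpin #1 and 1641, 1674 and 1779.8 with hairpin #4, a log2 change of 2.83 ± 0.07 (SE; limma adjusted p = 9.00e-28). At Lrrtm4/Gcfc2 (chr6:81586385-81586886) they were 112, 119 and 121 in the NTC libraries, 732, 726 and 691 with hairpin #1 and 857, 669 and 764 with hairpin #4, a log2 change of 2.64 ± 0.07 (SE; limma adjusted p = 6.60e-27). In these last peaks both hairpins stood far above all NTC libraries.

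Deserts next to developmental transcription factors were nearer to the remaining deserts. Of 127 such genes, 68 flanked 75 deserts with 1290 tested peaks, of which 36.4% were called higher, 21.2% lower and 9.15% at least 2-fold higher (median log2 fold 0.10). The shares were 42.8%, 18.5% and 14% over all desert peaks and 27.9%, 26.2% and 5.97% over all tested peaks. The Celf2/Gata3 peak (chr2:9377797-9378298) lay 479 kb from Gata3, a luminal regulator in the mammary gland, and its values were 48.4, 40.0 and 49.9 in the NTC libraries, 416, 406 and 413 with hairpin #1 and 315, 312 and 272 with hairpin #4. It rose with a log2 change of 2.91 ± 0.10 (SE; limma adjusted p = 1.28e-23), and all 3 groups were separate, with #1 highest. Its desert as a whole went the other way, with 17 of 47 peaks called lower and 6 higher (median log2 fold -0.13). The Ebf1/Clint1 peak (chr11:45274459-45274960), beside the gene of a B-cell and adipocyte factor, rose from 282, 262 and 349 in NTC to 1375, 1308 and 1279.6 with #1 and 1049, 1008 and 1150.1 with #4, and the Kcnj3/Nr4a2 peak (chr2:55822601-55823102), beside the gene of an orphan nuclear receptor, from 303, 259.8 and 264 to 1132, 1079 and 1065 and 1182, 1039.8 and 935. Their log2 folds were 2.00 ± 0.07 and 1.95 ± 0.06 (SE), and no knockdown library reached down to the NTC values.

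The signalling ligands and antagonists (22 of 61 flanked 24 deserts with 277 peaks) had 35.0% of peaks called higher and 22.4% lower, with a median log2 fold of 0.03. Among all desert peaks 42.8% were called higher and 18.5% lower, and among all tested peaks 27.9% and 26.2%. The Papss1/Dkk2 peak (chr3:131868381-131868882), beside the gene of a Wnt modulator, had values of 324, 332 and 288 in the NTC libraries, 1586, 1576 and 1516 with hairpin #1 and 2115, 2085 and 1910.3 with hairpin #4. It rose with a log2 change of 2.50 ± 0.05 (SE; limma adjusted p = 4.92e-30) and did not overlap between any pair of groups. The Igfbp3/Tns3 peak (chr11:8147646-8148147), beside the gene of a binding protein of insulin-like growth factors, had a log2 fold of 1.63 ± 0.06, and the Cxcl12/Zfp637 peak (chr6:117544463-117544964) of 1.69 ± 0.07 (SE); both were called higher.

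Of 11 mouse counterparts of genes at human breast cancer risk regions, 5 flanked 7 deserts with 314 peaks, of which 30.3% were called higher, 22% lower and 4.46% at least 2-fold higher (median log2 fold 0.03). Over all tested peaks these shares were 27.9%, 26.2% and 5.97%, and over all desert peaks 42.8%, 18.5% and 14%. The list's share called higher was thus nearer to that of all peaks. With #1 35.0% were called higher and 19.4% lower, beside 27.9% and 24.9% of all tested peaks. With #4 the shares were 26.4% and 27.4%, beside 26.2% and 24.3% of all tested peaks. The Med13l/Tbx3 peak (chr5:119208023-119208524), in the desert between a Mediator kinase module subunit and a mammary T-box factor, was 132, 179 and 188 in the NTC libraries, 828, 896 and 848 with hairpin #1 and 693, 735 and 584 with hairpin #4. It rose with a log2 change of 2.20 ± 0.08 (SE; limma adjusted p = 8.41e-23), with every knockdown library above every NTC library. The Tox3/Chd9 peak (chr8:90559254-90559755), beside the gene of an HMG-box protein, rose from 153, 178 and 191 in NTC to 355, 424 and 416 with #1 and 500.0, 492 and 459 with #4. On the other side of Tox3, in Sall1/Tox3, 11 of 27 peaks were called lower and 1 higher, and 17 were lower and 0 higher with #4 alone. In Myc/Gsdmc the peak with the lowest p (chr15:63302101-63302602) lay 474 kb from Gsdmc; it rose from 42.8, 35.9 and 60.5 to 222, 224 and 226 and 199.8, 157 and 196, a log2 change of 2.13 ± 0.14 (SE; limma adjusted p = 7.60e-16). Medians of this list and of the signalling list fell below 0, at -0.07 each, with libraries centred on peaks away from gene ends.

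Among the 12 desert peaks with the largest rises, 1 per desert, 7 lay in deserts flanked by a gene of the neural list. None lay in deserts flanked by a listed transcription factor. The neural list flanked 82 of the 642 deserts, with 922 of the 7404 tested desert peaks, and the transcription factor list 75 deserts with 1290 peaks. Both lists were chosen with earlier results of these data known, so these counts are no independent support for a link to either list. All 12 were weak in the control cells: NTC means ran from 4.89 to 44.2 normalised reads and 8 of the 12 were under 12. The selection required a mean of at least 50 over all libraries, which each of them reached only through the knockdown libraries. Their low control values thus follow in part from the selection. The Robo1/Robo2 peak (chr16:73483164-73483665), in the desert between a pair of receptors for the axon guidance cue Slit, was 54.1, 48.3 and 30.3 in the NTC libraries, 515, 441 and 468 with hairpin #1 and 710.2, 624 and 619 with hairpin #4. It rose with a log2 change of 3.66 ± 0.11 (SE; limma adjusted p = 2.06e-25), and the groups were separate. The Rgs18/Brinp3 peak (chr1:145890410-145890911), 605 kb from Brinp3, was 37.1, 28.8 and 27.0 in the NTC libraries, 463, 527 and 439 with hairpin #1 and 464, 412 and 399 with hairpin #4, a log2 change of 3.83 ± 0.11 (SE; limma adjusted p = 1.03e-26). Its hairpin groups overlapped each other and were both far above NTC.

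At Brinp1/Cdk5rap2 (chr4:69244134-69244635), beside a gene related to Brinp3, the values were 13.7, 8.22 and 10.6 in the NTC libraries, 229, 236 and 241 with hairpin #1 and 124, 116 and 79.4 with hairpin #4. The peak rose with a log2 change of 3.76 ± 0.19 (SE; limma adjusted p = 3.08e-19), and more with #1 than with #4 (#4 against #1 -1.16, limma adjusted p = 3.58e-05). Slitrk6/Slitrk5 (chr14:111171195-111171696), between genes of proteins that shape neurites and synapses, had 3.23, 4.11 and 13.1 in the NTC libraries, 202, 268 and 182 with hairpin #1 and 76.1, 88.2 and 63.5 with hairpin #4. Here too #1 was above #4, which was above NTC. Unc5d/Dusp26 (chr8:29612710-29613211), beside the gene of a netrin receptor, had 3.23, 11.3 and 4.91 in the NTC libraries, 92.8, 101 and 90.2 with hairpin #1 and 116, 127 and 101 with hairpin #4. Its log2 fold was 3.96 ± 0.26, and only the NTC libraries stood apart.

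The largest log2 fold among these peaks at a pseudocount of 1, 4.51 ± 0.31 (SE), was at Ntm/Snx19 (chr9:30199500-30200001), beside the gene of a neural adhesion protein, where the values were 11.3, 1.03 and 8.18 in the NTC libraries, 115, 128 and 110.0 with hairpin #1 and 160.0, 164 and 166 with hairpin #4. It rests in part on replicate 2 of NTC, without which it was 3.71. At Gm40892/Flrt2 (chr12:94910745-94911246) the values were 1.61, 14.4 and 13.9 in the NTC libraries, 66.4, 69.8 and 74.8 with hairpin #1 and 127, 125 and 116 with hairpin #4, and the log2 fold of 3.48 became 2.63 without replicate 1 of NTC. Both remained called in each case. Folds from such low control values depend on the pseudocount: with 10 in place of 1 the log2 fold was 3.20 at Ntm/Snx19, 3.09 at Slitrk6/Slitrk5, 2.82 at Unc5d/Dusp26, 3.02 at Brinp1/Cdk5rap2 and 2.45 at Gm40892/Flrt2, and the 12 peaks ran from 2.38 to 3.49, with Rgs18/Brinp3 then the highest.

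Further peaks of the 12 were in Arpp21/Pdcd6ip, beside the gene of a neuronal phosphoprotein, Vrk2/Ccdc85a, Brinp3/Pla2g4a and Gm33989/Vstm2b, with log2 folds from 3.33 to 4.00. The gene table does not count segments of antigen receptors as protein-coding genes; of the 27 tested desert peaks within 200 kb of an antigen receptor segment, 10 (37.0%) were called higher and 2 (7.41%) lower, beside 42.8% and 18.6% of the other desert peaks. Of the 12 largest rises, 5 differed between the hairpins by the test of #4 against #1. That test called 28.9% of desert peaks higher and 24.1% lower, and 41.6% of all peaks in either direction.

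**Figure D5:**
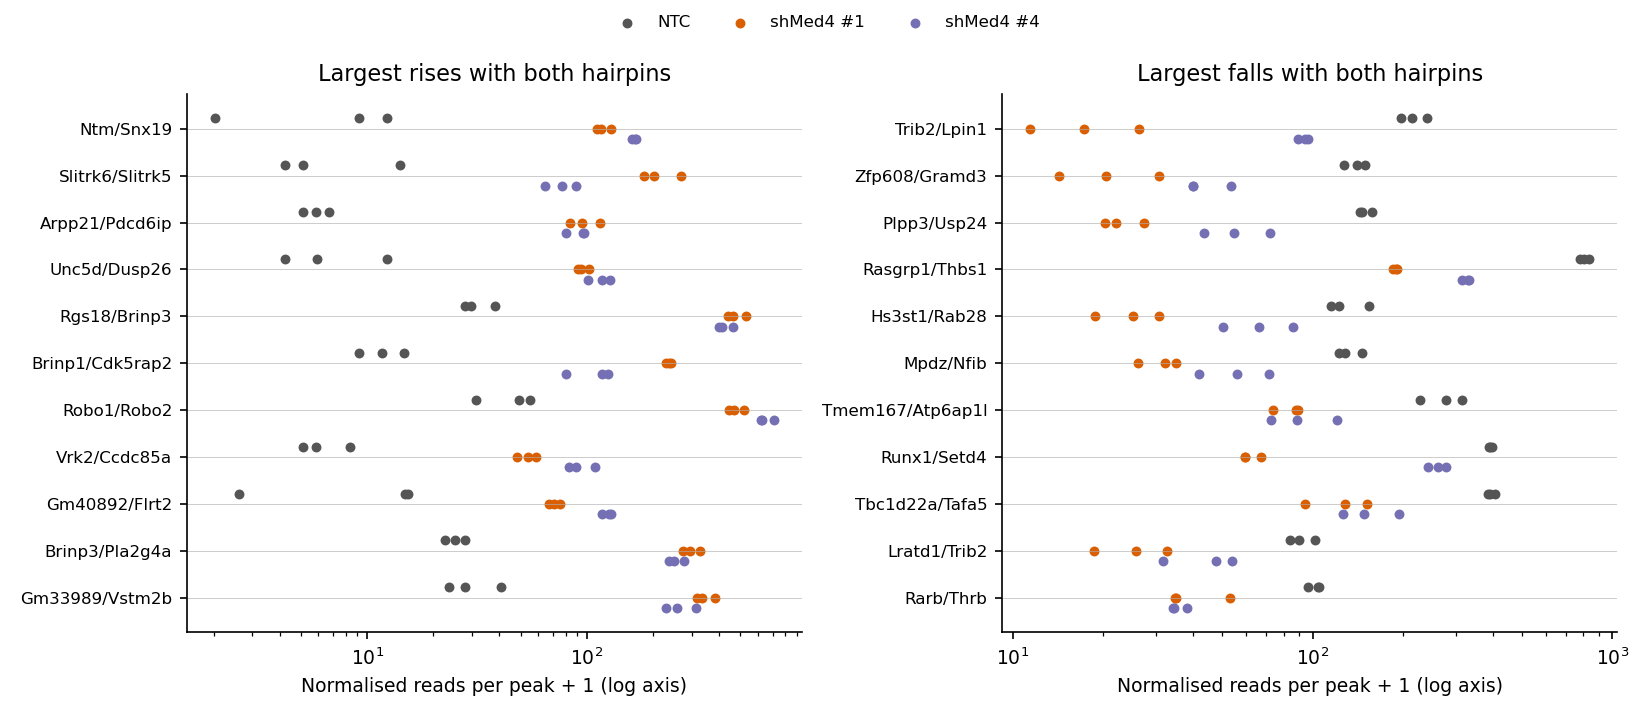
Normalised reads per peak plus 1 (log axis) in every library, for 11 of the 12 desert peaks with the largest rises (left) and 11 of the 12 with the largest falls (right) in the knockdown cells, named by the genes that flank their desert. On the left the NTC points lie at the low end, with means from 4.89 to 44.2, and on the right in 10 of 11 peaks hairpin #1 is lower on average than hairpin #4.

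The 12 largest falls were smaller, from -1.43 to -2.43 on the log2 scale, and started from higher control values. The selection required a mean of at least 50 over all libraries. A fallen peak can reach it through NTC, and a risen one through the knockdown libraries. This contrast thus follows in part from the selection. Of the 12 falls, 2 were flanked by listed transcription factors and 1 by a gene of the neural list. Those lists flanked 75 and 82 of the 642 deserts, with 1290 and 922 of the 7404 tested desert peaks. The Trib2/Lpin1 peak (chr12:16042365-16042866), 226 kb from the gene of the pseudokinase Trib2, was 196, 239 and 214 in the NTC libraries, 10.4, 16.2 and 25.3 with hairpin #1 and 95.2, 88.2 and 93.5 with hairpin #4. It fell with a log2 change of -2.43 ± 0.19 (SE; limma adjusted p = 2.28e-13), and the groups were separate, with #1 lowest. The strongest in control cells was Rasgrp1/Thbs1 (chr2:117743813-117744314), 368 kb from the thrombospondin 1 gene, with 801, 837 and 776 in the NTC libraries, 189.7, 189 and 184 with hairpin #1 and 314, 330.0 and 332 with hairpin #4. It fell with a log2 change of -1.70 ± 0.07 (SE; limma adjusted p = 8.88e-22), and again #1 was below #4 in every library.

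At Runx1/Setd4 (chr16:93189352-93189853), beside the gene of a transcription factor of blood and mammary epithelium, the values were 395, 390.2 and 385 in the NTC libraries, 58.4, 58.4 and 66.0 with hairpin #1 and 277, 242 and 261 with hairpin #4. The fall was deep with #1 (-2.66) and slight with #4 (-0.59), and the difference between them was 2.07 (limma adjusted p = 6.62e-17). Plpp3/Usp24 (chr4:105706040-105706541) had 145, 143 and 157 in the NTC libraries, 19.2, 21.1 and 26.4 with hairpin #1 and 70.9, 53.7 and 42.3 with hairpin #4. Rarb/Thrb (chr14:17414180-17414681), between genes of the nuclear receptors for retinoic acid and thyroid hormone, had 104, 95.5 and 103 in the NTC libraries, 33.6, 51.9 and 34.1 with hairpin #1 and 37.2, 33.3 and 33.5 with hairpin #4. It was the exception among the 12, with #4 on average below #1, and here the hairpin groups overlapped. Further falls were in Zfp608/Gramd3, Hs3st1/Rab28, Mpdz/Nfib, Tmem167/Atp6ap1l, Tbc1d22a/Tafa5 and Lratd1/Trib2. By the test of #4 against #1, 9 of the 12 falls differed between the hairpins. The same test called 28.9% of desert peaks higher and 24.1% lower, and 41.6% of all peaks in either direction.

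At other desert peaks the hairpins differed most from each other. The Cdh8/Cdh11 peak (chr8:99904736-99905237), between the genes of a pair of cadherins, was 10.5, 16.4 and 7.36 in the NTC libraries, 12.8, 16.2 and 7.70 with hairpin #1 and 186, 139 and 136 with hairpin #4. With #4 against #1 its log2 fold was 3.59 ± 0.34 (SE; limma adjusted p = 8.46e-11), and #1 overlapped NTC. Pabpc4l/Pcdh18 (chr3:46679634-46680135), beside a protocadherin gene, showed the same order, with 16.1, 19.5 and 17.2 in the NTC libraries, 9.60, 28.4 and 18.7 with hairpin #1 and 197, 234 and 209.9 with hairpin #4. At Frg1/Triml1 and Fstl5/Rapgef2 the differences between hairpins were 3.28 and 3.00.

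In the other direction, Klf4/Actl7b (chr4:55991628-55992129), beside the gene of a reprogramming and epithelial factor, had 65.4, 62.6 and 48.3 in the NTC libraries, 200.1, 232 and 213 with hairpin #1 and 58.8, 55.0 and 44.1 with hairpin #4. Here #4 overlapped NTC and #1 stood above both, with a log2 fold of -2.02 ± 0.18 for #4 against #1 (SE; limma adjusted p = 1.33e-11). Vps13c/Rora (chr9:68231108-68231609), beside the gene of an orphan nuclear receptor, had 42.8, 48.3 and 49.1 in the NTC libraries, 221, 235 and 265 with hairpin #1 and 79.6, 43.5 and 56.4 with hairpin #4. The differences at Tle4/Psat1 and Nkain3/Prdm13 were -2.20 and -1.94.

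The most accessible desert peaks of the control cells differed little between groups. The highest was in Myc/Gsdmc (chr15:62328325-62328826), 338 kb from Myc, with 8080.2, 8368 and 8145 in the NTC libraries, 7758, 7254 and 7613 with hairpin #1 and 8155, 8588 and 9135 with hairpin #4. It was not called with the mean of the hairpins (-0.02, limma adjusted p = 0.613), and #1 was below both other groups in every library (limma adjusted p = 0.0209 against NTC). Next came Igfbp3/Tns3 (chr11:7423641-7424142), 208 kb from Igfbp3, with 6649.9, 7004 and 6828 in the NTC libraries, 7051, 6745 and 7571 with hairpin #1 and 5932, 6653 and 6876 with hairpin #4 and a log2 fold of -0.01 (limma adjusted p = 0.884); its groups overlapped.

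Of the peaks that follow in level, 9330182O14Rik/Zfpm2 (chr15:40364130-40364631) fell from 5832, 5929 and 5925 in NTC to 4719, 4706 and 4762 with #1 and 5256, 5433 and 5581 with #4, Osr1/Nt5c1b from 5488, 5387 and 5439 to 4393, 4361 and 4263 and 4606, 4776 and 4863, and Rtl1/Dio3 from 5091, 5439 and 5306 to 4234, 4088 and 4360.4 and 4136, 4359 and 4450.4. Their log2 folds were -0.22 ± 0.04, -0.26 ± 0.04 and -0.31 ± 0.04 (SE). In each, all NTC libraries were above all knockdown libraries, by margins that were small beside the rises of the weak peaks.

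Promoters of lncRNA genes in the deserts went both ways. Promoter windows of 62 lncRNA genes overlapped 63 tested desert peaks, of which 25 (39.7%) were called higher and 14 (22.2%) lower, beside 42.8% and 18.5% of all desert peaks, with a median log2 fold of 0.03. At the Gm31415 promoter, printed above, the values were 94.4, 90.4 and 76.1 in the NTC libraries, 202, 219.8 and 215 with hairpin #1 and 336, 301 and 288 with hairpin #4. It rose with a log2 change of 1.55 ± 0.10 (SE; limma adjusted p = 1.97e-15), in the same desert as the Pabpc4l/Pcdh18 peak described above, and all groups were separate. The Gm36536 promoter was 33.9, 26.7 and 20.5 in the NTC libraries, 89.6, 88.4 and 74.8 with hairpin #1 and 54.5, 70.3 and 67.0 with hairpin #4, a log2 change of 1.43 ± 0.20 (SE; limma adjusted p = 2.11e-07).

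The Gm12022 promoter, in the desert between Etaa1 and the homeobox gene Meis1, was 479, 424 and 446 in the NTC libraries, 229.7, 232 and 234 with hairpin #1 and 266, 233 and 299.9 with hairpin #4. It fell with a log2 change of -0.85 ± 0.08 (SE; limma adjusted p = 3.28e-11). The Gm30246 promoter was 286, 232 and 251 in the NTC libraries, 186, 196 and 193 with hairpin #1 and 123, 156 and 136 with hairpin #4, a log2 change of -0.65 ± 0.10 (SE; limma adjusted p = 1.49e-06); all knockdown libraries of both promoters were below all NTC libraries. Firre, a lncRNA of the X chromosome known for its role in nuclear organisation, had a promoter peak of 478, 500.1 and 566 in the NTC libraries, 612, 648 and 650.3 with hairpin #1 and 617, 647 and 693 with hairpin #4, which rose with a log2 fold of 0.33 ± 0.06 (SE). Larger rises were at the promoters of Gm40439 (1.74) and Gm41277 (1.08), the latter between the cadherin genes Cdh9 and Cdh10.

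Desert peaks within 5 kb of a microRNA gene numbered 32, by 23 microRNA genes in 10 deserts; this selection is outside the rule for named peaks and was made with values known. Of them, 10 (31.3%) were called higher and 2 (6.25%) lower, beside 42.8% and 18.5% of all desert peaks and 27.9% and 26.2% of all peaks. The deepest fall was near Mir100, which shares the seed printed above with miR-99a. Its peak (chr9:41533088-41533589) is centred 1834.5 bp from Mir100 in Ubash3b/Gm40514 and had 77.5, 117 and 65.5 in the NTC libraries, 4.00, 8.11 and 4.40 with hairpin #1 and 30.3, 35.8 and 42.3 with hairpin #4. It fell with a log2 change of -2.49 ± 0.30 (SE; limma adjusted p = 6.42e-09), -3.76 with #1 and -1.21 with #4, and #4 was above #1 by 2.55 (limma adjusted p = 1.50e-07). With a pseudocount of 10 the fall was -1.83.

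The 6 peaks around Mir125b-1, farther along the same desert, had log2 folds from -0.16 to 0.15, and 1 of them (chr9:41577685-41578186) was called, with 792, 833 and 847 in the NTC libraries, 947, 1038 and 932 with hairpin #1 and 919.5, 799 and 875 with hairpin #4, where #1 was above NTC and #4 overlapped it. The call was lost without replicate 1 of NTC (limma adjusted p = 0.114), without replicate 2 of #1 (0.0610) and with libraries centred away from gene ends (0.444). In Usp25/Cxadr, the desert that holds Mir99a, Mirlet7c-1 and Mir125b-2, the strong peak between Mirlet7c-1 and Mir125b-2 (chr16:77602468-77602969) rose from 1050.1, 1063 and 1044 in NTC to 1294, 1360.4 and 1288 with #1 and 1375, 1319 and 1314 with #4 (0.33 ± 0.05, SE), with no overlap between NTC and either hairpin. That desert had 16 of 27 peaks called higher and 0 lower. Of the 3 peaks within 5 kb of Mir99a this one, 3718.5 bp away, was called higher, as was a weaker one (chr16:77594454-77594955), which lost its call without replicate 2 of NTC (limma adjusted p = 0.154). The nearest, 2197.5 bp away, was not called (-0.01, limma adjusted p = 0.911); its log2 fold was 0.25 with #1 and -0.28 with #4.

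The Mir344 cluster lies in Gm51483/Ndn, beside the imprinted gene of necdin. Its peak at Mir344d-2 (chr7:61685207-61685708) had 16.9, 11.3 and 26.2 in the NTC libraries, 46.4, 24.3 and 36.3 with hairpin #1 and 96.0, 94.6 and 77.6 with hairpin #4 and rose with a log2 change of 1.64 ± 0.26 (SE; limma adjusted p = 1.55e-06). Hairpin #4 was above all NTC libraries there, and #1 overlapped them. At Mir344d-3 (chr7:61726179-61726680) the values were 86.4, 97.6 and 95.7 in the NTC libraries, 86.4, 93.3 and 72.6 with hairpin #1 and 243, 242 and 222 with hairpin #4; only #4 stood above NTC, and the log2 folds were -0.15 with #1 and 1.33 with #4. Near Mir221 and Mir222, which have a common seed, 1 of 3 peaks (chrX:19142413-19142914) was called higher, with 72.6, 50.3 and 42.5 in the NTC libraries, 59.2, 83.6 and 85.8 with hairpin #1 and 91.7, 87.0 and 68.8 with hairpin #4, where the NTC values overlapped both hairpins. This call was lost without replicate 2 of NTC (limma adjusted p = 0.0614) and without replicate 3 of NTC (0.147).

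The 4 peaks just inside the limit lay 200.08 to 200.12 kb from a gene, in Frk/Amd2, Myc/Gsdmc, Klf7/Creb1 and Opa1/Hes1, and their NTC means were 122, 93.4, 31.4 and 164. The 4 just outside lay 199.95 to 199.98 kb away, in Zc3h12c/AI593442, Maf/Dynlrb2, Egflam/Gdnf and Ccdc171/Bnc2, with NTC means of 984, 583, 157 and 38.7.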

How the data were processed

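ATAC-seq libraries of D2A1-d cells were compared in 3 groups of 3 (NTC, shMed4 #1, shMed4 #4). Each deposited value is a signal: the reads of 1 library in 1 peak of a common set, which the authors scaled with DESeq2, as the deposited table's name says. Per the submitters' processing notes, Subread, featureCounts, MACS2, BWA and Trim Galore were used (no versions), with builds GRCm38 and mm10. Pooled or separate peak calling was not given in the sources used here. Every deposited value was a whole multiple of 1 step per library (100% within 0.0001 of a read), which gives the depth. Peak coordinates are as deposited, with no statement of whether they start at 0.

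From these values limma 3.58.1 (R 4.3.3; lmFit and eBayes with a trend) was run on log2 of the normalised value plus 1, over all 146729 peaks with a mean of at least 10, with the 9 libraries fitted at once as 3 group means. Benjamini-Hochberg adjustment ran over all these peaks. The steps were tested on simulated data. A log2 fold on this scale understates the change of weak peaks. SE is the standard error of the fit.

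Genes come from a RefSeq gene table of GRCm38.p6; exons and untranslated regions were not analysed here. Members, gene lists and the rule for named peaks were chosen with earlier results of these data known. The rule took, at a mean of at least 50 and 1 peak per desert, the 12 highest and 12 lowest folds whose call had the same sign for each hairpin, the 4 highest and 4 lowest of #4 against #1, up to 4 peaks called in opposite directions by the hairpins, the 5 highest in NTC, 3 peaks per list by p, the 5 largest deserts and the 5 highest and 5 lowest desert medians. Plpp3/Usp24, Cxcl12/Zfp637, A1bg/Myc, the runs, the lncRNA promoters and the microRNA peaks are outside it and were chosen after their values were seen. The counts over the Celf2/Gata3, Sall1/Tox3 and Usp25/Cxadr deserts are outside the rule too. A few named peaks are not reported here. Alternatives are given in the closing section.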

Additional observations from a re-analysis of the deposited data

Results flagged for a closer look

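The hairpins were called in opposite directions against NTC at 328 desert peaks (4.43%; 3.17% of all peaks). Of these, 179 were higher with #4 and lower with #1, and 149 went the other way. The 4 with the largest difference between the hairpins, at a mean of at least 50, were all higher with #4. The Naf1/Nat1 peak (chr8:67285805-67286306) was 63.8, 56.5 and 66.3 in the NTC libraries, 31.2, 51.9 and 51.7 with hairpin #1 and 313, 312 and 314 with hairpin #4. Hairpin #4 exceeded #1 there by 2.81 ± 0.18 on the log2 scale (SE; limma adjusted p = 2.89e-15), and the #4 libraries lay within a few reads of each other. The Rps24/Zmiz1 peak (chr14:24793630-24794131) was 196, 179.7 and 158 in the NTC libraries, 91.2, 98.2 and 109 with hairpin #1 and 621, 641 and 624 with hairpin #4, with a difference of 2.65 ± 0.11 (limma adjusted p = 2.52e-20). All 3 groups were separate.

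At Cox7c/Edil3 (chr13:88201847-88202348) the values were 36.3, 38.0 and 32.7 in the NTC libraries, 8.0, 17.0 and 23.1 with hairpin #1 and 131, 76.7 and 102 with hairpin #4, and the difference was 2.70 ± 0.31 (limma adjusted p = 4.23e-09). At Grm3/Gm5861 (chr5:10792805-10793306), beside the gene of a glutamate receptor, they were 107, 66.7 and 77.7 in the NTC libraries, 49.6, 38.1 and 41.8 with hairpin #1 and 278, 271 and 206 with hairpin #4, with a difference of 2.51 ± 0.18 (limma adjusted p = 6.94e-14). In both peaks #1 lay below NTC and #4 above it in every library. With the mean of both hairpins, Cox7c/Edil3 (0.13) and Grm3/Gm5861 (0.34) were not called, while Naf1/Nat1 (0.91) and Rps24/Zmiz1 (0.49) were called higher. The cause of the difference between the hairpins was not tested.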

How the results depend on the processing

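The calls over the deserts kept their direction under the pseudocounts, filters, scalings, thresholds, distances and gene sets tried. Without any 1 library the share called higher with the mean of the hairpins was 39.6 to 43.7% and lower 15.7 to 18.7%. Any pairing of the libraries by replicate number was weak, with 9 same-number correlations from -0.01 to 0.07. Still, 6 of 9 libraries correlated best with their own number in each of the other groups, so a weak pairing is not excluded. With the replicate number as a block 43.3% were called higher and 18.9% lower. Tests on counts (edgeR, DESeq2) and the sequence features of all peaks were not run.

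The median log2 fold of the deserts, 0.17, became 0.14 with a mean of at least 50, 0.25 centred on gene-end peaks, 0.070 centred on peaks away from them, 0.12 beyond 100 kb, 0.24 beyond 500 kb and 0.31 when 1439 peaks also over 200 kb from non-coding genes were kept. Deserts less other peaks, 0.19, became 0.17 (mean of at least 50), 0.15 (100 kb), 0.26 (500 kb) and 0.33 (non-coding). For #1 it became 0.15, 0.24 and 0.28 at these last distances and rule, and for #4 0.15, 0.30 and 0.37, with 0.17 at a mean of at least 50. The share at least 2-fold lower became 0.729% with a pseudocount of 10, 1.84% centred away from gene ends (2.07% for #4) and 0.695% with the non-coding rule. That rule also gave, for #4, 12% lower and 26.1% at least 2-fold higher, with 13.8% above #1 by that factor, and 80.8% of its calls higher against 69.6%; centred away from gene ends that share was 58.5%. The cause of these shifts was not tested.

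Signs reversed only near 0. The Myc/Gsdmc desert median became -0.0086 with equal totals, -0.093 centred away from gene ends and -0.0070 to 0.044 without any 1 library (lowest without replicate 2 of NTC); Nmbr/Cited2 -0.0153, and the signalling and breast cancer lists -0.0725 and -0.0669, centred away from gene ends. The strongest Myc/Gsdmc and Igfbp3/Tns3 peaks became 0.051 and 0.067 centred on gene-end peaks, and the latter -0.031 to 0.023 without any 1 library (0.010 and 0.011 without replicate 2 of NTC or of #1, highest without replicate 1 of #4); none of these was called. Of 69 named peaks, 4 peaks near microRNA genes (Mir125b-1, Mir99a, Mir125b-2, Mir221) lost their call under some alternatives. Depth limits the peaks near 10 reads, where a single read moves the log2 value most.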
